A study of Mus musculus with 2 samples.

Results

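The genes described here are 30 genes of the G2/M phase and of mitosis, taken by symbol from a fixed list of names, out of 33696 genes in the deposited count matrix. All 30 were found, each symbol once. The study profiled mouse cells of the line Delmix by droplet-based single-cell RNA sequencing from the 3′ end. Its 2 groups, with 1 sample each, were embryoid bodies on day 2, which are aggregates of differentiating cells made from epiblast stem cells, and the untreated epiblast stem cells, a pluripotent line of the primed state. No other allele, agent or treatment was given for either group, and neither label names feeder cells. The counts lie in 1 pooled matrix although the labels describe a channel for each sample, its cell tags match no sample label, and 21465 of 21593 called cells have no tag call, so embryoid bodies and epiblast stem cells cannot be told apart in it. Every value below is of that pool, by cluster of cells or by class of cell, with no test and no p-value. Intervals are 95% intervals of counting error only.

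A cell that has copied its DNA passes through G2 and then divides its chromosomes in mitosis. Cyclin B binds the kinase CDK1 to start mitosis, a spindle of microtubules captures the chromosomes at their kinetochores, a checkpoint holds the cell until all are attached, and the anaphase-promoting complex then tags cyclin B and other proteins for destruction so that the chromosomes part and the cell is cleft. Many of the genes are transcribed late in the cycle from promoters that carry a short element named the cell cycle genes homology region, to which the LIN54 subunit of the MuvB complex binds, often with CCAAT boxes bound by NF-Y. Pluripotent cells and early embryonic cells are known to divide fast, with a short G1 phase.

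Of the 30 genes, 28 had a promoter in the RefSeq table of mouse promoters (build GRCm38.p6, 250 bases before to 50 after the start), and Tpx2 and Aurkb had none. Coordinates are those of that table, since no source used here names the build behind the counts. The letters TTTGAA, the core of the cell cycle genes homology region, were searched on both strands, and a promoter counted for a gene where any promoter of it held them. They were present for 20 of the 28 genes (71.4%), against 20.2% of all 27025 genes in the table. Between 30 bases before and 50 after the start they were present for 19 of the 28, against 4.45% of all genes. The letters CCAAT were present on either strand for 21 of the 28 (75%), against 41.1% of all genes, and 17 of the 28 held both, against 7.97% of all genes. TTCGAA, a variant of the core that reads the same on both strands, was present for 2 of the 28, Bub1 and Top2a, against 1.80% of all genes. None of these letters overlaps another in the windows shown. A match is a description of the letters and shows no binding.

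The windows printed here run from 90 bases before the start to 50 after it, 5′ to 3′ along the gene. They are of the 5 genes that went most closely with the other 29 from cell to cell and of the 3 that did so least, over all kept cells, as measured further on, so that the letters can be read beside those values. Capitals mark the letters searched for, on either strand. The genes shown were chosen after their values were seen.
Ube2c, chr2:164769839-164769978, plus strand: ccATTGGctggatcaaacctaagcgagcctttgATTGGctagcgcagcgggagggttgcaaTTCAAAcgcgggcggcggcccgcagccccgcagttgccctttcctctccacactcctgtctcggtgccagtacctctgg
Nusap1, chr2:119618208-119618347, plus strand: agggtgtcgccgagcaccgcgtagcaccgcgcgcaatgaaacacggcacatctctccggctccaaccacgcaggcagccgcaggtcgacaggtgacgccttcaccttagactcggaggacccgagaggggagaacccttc
Aurka, chr2:172370521-172370660, minus strand: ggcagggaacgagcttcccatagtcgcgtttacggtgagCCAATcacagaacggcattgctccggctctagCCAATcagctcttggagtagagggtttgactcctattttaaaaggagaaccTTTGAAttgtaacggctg
Plk1, chr7:122159345-122159484, plus strand: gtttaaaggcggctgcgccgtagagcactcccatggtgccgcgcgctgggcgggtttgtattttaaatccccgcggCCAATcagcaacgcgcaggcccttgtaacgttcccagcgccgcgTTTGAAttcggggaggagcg
Ccnb1, chr13:100786437-100786576, minus strand: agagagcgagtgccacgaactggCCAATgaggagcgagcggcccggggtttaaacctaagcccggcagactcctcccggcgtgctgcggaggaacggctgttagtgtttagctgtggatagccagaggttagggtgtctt
Anln, chr9:22389157-22389296, minus strand: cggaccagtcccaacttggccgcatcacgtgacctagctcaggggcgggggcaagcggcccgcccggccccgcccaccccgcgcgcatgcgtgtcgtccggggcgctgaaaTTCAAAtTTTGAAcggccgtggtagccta
Hmgb2, chr8:57511753-57511892, plus strand: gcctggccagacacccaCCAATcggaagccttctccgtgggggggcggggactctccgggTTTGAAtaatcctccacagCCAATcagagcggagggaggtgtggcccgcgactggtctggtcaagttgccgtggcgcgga
Bub1, chr2:127831810-127831949, minus strand: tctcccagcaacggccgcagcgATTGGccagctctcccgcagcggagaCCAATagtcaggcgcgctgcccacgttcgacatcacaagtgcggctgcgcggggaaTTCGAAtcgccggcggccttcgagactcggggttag

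With the first transcribed base counted as 1, TTTGAA began at base 33 in Aurka and at base 31 in Plk1, and lay on the opposite strand from base -29 in Ube2c. Hmgb2 carried it at base -30, between CCAAT boxes at -73 and -11. Anln carried it on opposite strands at bases 22 and 29 and had no CCAAT. Bub1 carried TTCGAA at base 15 in place of TTTGAA. Nusap1 had none of these letters in the window. TTTGAA thus lay in the windows of 3 of the 5 closest followers over all kept cells and of 2 of the 3 least close. Inside single clusters that order differed, and Anln was no weak follower in the primed epiblast-like cluster.

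Across the 16841 kept cells, which held 121114764 UMIs (unique molecular identifiers, 1 per captured transcript) at a median of 6473 per cell, the 30 genes took 762183 UMIs, or 6293 CPM (counts scaled to a fixed library total, interval 6279 to 6307). Hmgb2 alone made up 30.05% of them. Each captured transcript is read from its 3′ end, so levels were not divided by gene length. Among CDK1 and its partners, Cks2, a small subunit that docks substrates to the kinase, stood at 497 CPM (493 to 501), Cdk1, the kinase itself, at 259 CPM, and its cyclins Ccnb1 and Ccnb2 at 208 and 102 CPM. Of the spindle pole kinases, Aurka stood at 104 CPM and Plk1 at 71.4 CPM, and Tpx2, which activates Aurora A on microtubules, at 146 CPM. In the chromosomal passenger complex, which corrects faulty attachments, the survivin gene Birc5 stood at 330.5 CPM and its kinase Aurkb at 63.9 CPM.

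The kinetochore and checkpoint genes included the lowest levels of the 30. Ndc80 and Nuf2, which form the arm that grips microtubules, stood at 26.6 and 26.8 CPM and were the only 2 of the 30 under 50 CPM. The checkpoint kinases Ttk and Bub1 stood at 50.2 and 70.0 CPM, the kinetochore motor Cenpe at 89.2 CPM, Cenpf at 150.2 CPM and Cenpa, the centromeric histone H3 variant, at 236 CPM. Of the spindle genes, the motor Kif11 stood at 87.4 CPM and the microtubule-binding genes Nusap1, Hmmr and Tacc3 at 141, 94.8 and 70.8 CPM. The cytokinesis genes lay close together: Kif23 of the central spindle at 69.2 CPM, Kif20b at 94.6 CPM, the actin-binding anillin gene Anln at 54.9 CPM, and Ect2, the activator of RhoA at the cleavage furrow, at 106 CPM. Of the genes that serve ubiquitin ligases, Ube2c, an E2 enzyme of the anaphase-promoting complex, stood at 393 CPM, its activator Cdc20 at 219 CPM and Cdca3 at 89.0 CPM. Of the chromatin genes, Hmgb2, a DNA-bending protein, stood at 1891 CPM (1883 to 1899), Top2a, the topoisomerase that untangles chromosomes, at 486 CPM, and Mki67, the Ki-67 coat of mitotic chromosomes, at 67.6 CPM.

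These transcripts were also in cell-free droplets, at nearly the share they had in cells. The 30 genes stood at 6293 CPM in kept cells and at 6041 CPM in 72027 uncalled droplets of 150 to 300 UMIs. Per droplet, however, that was 45.3 UMIs in a kept cell and 1.31 UMIs in a cell-free droplet. The ratio of the level in kept cells to that in cell-free droplets was above 1 for 18 of the 30, with a median of 1.06, against a median of 1.04 over 6864 genes of at least 20 CPM. It was highest for Tpx2, at 146 CPM in kept cells and 92.9 CPM in cell-free droplets (ratio 1.57), and lowest for Cdc20, at 219 CPM in kept cells and 315 CPM in cell-free droplets (ratio 0.70).

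The kept cells fell into 14 clusters. The 30 genes and 2 further lists of cell cycle genes were kept out of the genes used for clustering, which left 1999 of 2000 variable genes. From marker genes, 9 clusters took a name. They were naive pluripotency-like (cluster 1, 4623 cells, led by Zfp42 and Esrrb), primed epiblast-like (2, 3764 cells, with Fgf5 and Pou3f1), caudal epiblast-like (4, 1294 cells), simple epithelium-like (5, 775 cells), primitive streak and mesoderm-like (7, 663 cells), fibroblast or feeder-like (8, 532 cells, with Col3a1 and Dcn), neuron and neural-like (11, 244 cells), two-cell-like (12, 203 cells, with Zscan4d) and macrophage-like (13, 81 cells, with Lyz2 and C1qa). Clusters 3, 6, 9, 10 and 14 stayed unnamed. By a 2-fold limit, 10 of 10 naive markers were higher in cluster 1 and 4 of 10 primed markers in cluster 2, each set against the other cells. Cluster 6 was shallow, at a median of 2652 UMIs, and 68.2% of cluster 9 was called doublets, against 10.3% of all kept cells.

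In the 10 clusters of at least 100 cells other than clusters 6 and 8, the 30 genes stood at nearly the same summed level. The lowest was the simple epithelium-like cluster at 5943 CPM (5882 to 6003) and the highest was cluster 10, led by Rhox9 and Rhox6, at 6875 CPM (6776 to 6975), a 1.16-fold range. Cells of the caudal epiblast-like cluster stood at 6622 CPM, cluster 9 at 6579 CPM and cluster 3, led by Anks1b and Ptprt, at 6075 CPM. The naive pluripotency-like cluster stood at 6689 CPM, primitive streak and mesoderm-like cells at 6791 CPM, the primed epiblast-like cluster at 6596 CPM, the two-cell-like cluster at 6425 CPM and the neuron and neural-like cluster at 6032 CPM. Single genes moved more than the sum. The median of the 30 was a 1.55-fold range between the highest and the lowest of these clusters, against 2.17-fold over 8887 genes of at least 20 CPM in one of them. A range of at least 2-fold was reached by 3 of the 30, against 56.4% of all those genes. For 28 of the 30 the intervals of the highest and lowest cluster lay apart, Ttk and Kif11 being the exceptions. The clusters compared were picked as the extremes of each gene, and the share over all genes was not computed. That count therefore does not set the 30 apart from other genes.

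The widest ranges were those of Anln at 2.30-fold, Kif23 at 2.10-fold and Cdca3 at 2.00-fold, and the narrowest was that of Tpx2 at 1.23-fold. Anln reached 86.0 CPM (75.3 to 97.9) in cluster 10 and 83.9 CPM in the simple epithelium-like cluster, and stood at 40.0 CPM in the caudal epiblast-like and 37.3 CPM (28.3 to 48.4) in the two-cell-like cluster. Kif23 had its highest level in primitive streak and mesoderm-like cells, 96.2 CPM (87.3 to 106), and its lowest in two-cell-like cells, 45.9 CPM (35.7 to 57.9). The two-cell-like cluster was the lowest of the 10 for Top2a, at 321 CPM, against 577 CPM in primitive streak and mesoderm-like cells, although it had the second highest Hmgb2, at 2358 CPM. Hmgb2 was highest in the caudal epiblast-like cluster, at 2418 CPM (2385 to 2451), and lowest in the simple epithelium-like one, at 1658 CPM (1627 to 1691). Hmmr, a spindle protein, was highest in the two-cell-like cluster at 119.9 CPM and lowest in the neuron and neural-like cluster at 61.1 CPM. Cluster 10 was the highest of the 10 for Ube2c, at 473 CPM, for Cdca3, at 148 CPM, and for Cenpf, at 214 CPM, but the lowest for Birc5, at 269 CPM.

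Against all other kept cells, none of the 30 genes was 2-fold higher or lower in any of these 10 clusters. In cluster 1 (naive pluripotency-like), 2.17% of tested genes were higher and 5.72% lower by that measure, in cluster 2 (primed epiblast-like) 0.116% and 2.66%, and in cluster 3 1.17% and 1.53%. In cluster 4 (caudal epiblast-like) the shares were 3.98% higher and 5.87% lower, in cluster 5 (simple epithelium-like) 3.19% and 1.7%, and in cluster 7 (primitive streak and mesoderm-like) 5.85% and 5.56%. In cluster 9 they were 0.0% and 0.66%, in cluster 10 3.99% and 6.55%, in cluster 11 (neuron and neural-like) 10.2% and 3.86%, and in cluster 12 (two-cell-like) 8.63% and 4.51%. Where both shares were small, as in clusters 2, 3 and 9, a count of none among 30 genes is near the background. Whether none differs from the larger shares of other clusters was not tested. Cluster 14, of 44 cells led by Shh and Lmx1a, had 1 gene higher, Nuf2 at 56.2 CPM against 26.8 CPM in the other cells, and 2 lower, Ccnb2 at 48.2 CPM against 102 CPM and Cdc20 at 84.3 CPM against 219 CPM. In that cluster 15% of tested genes were higher and 7.7% lower.

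**Figure D1:**
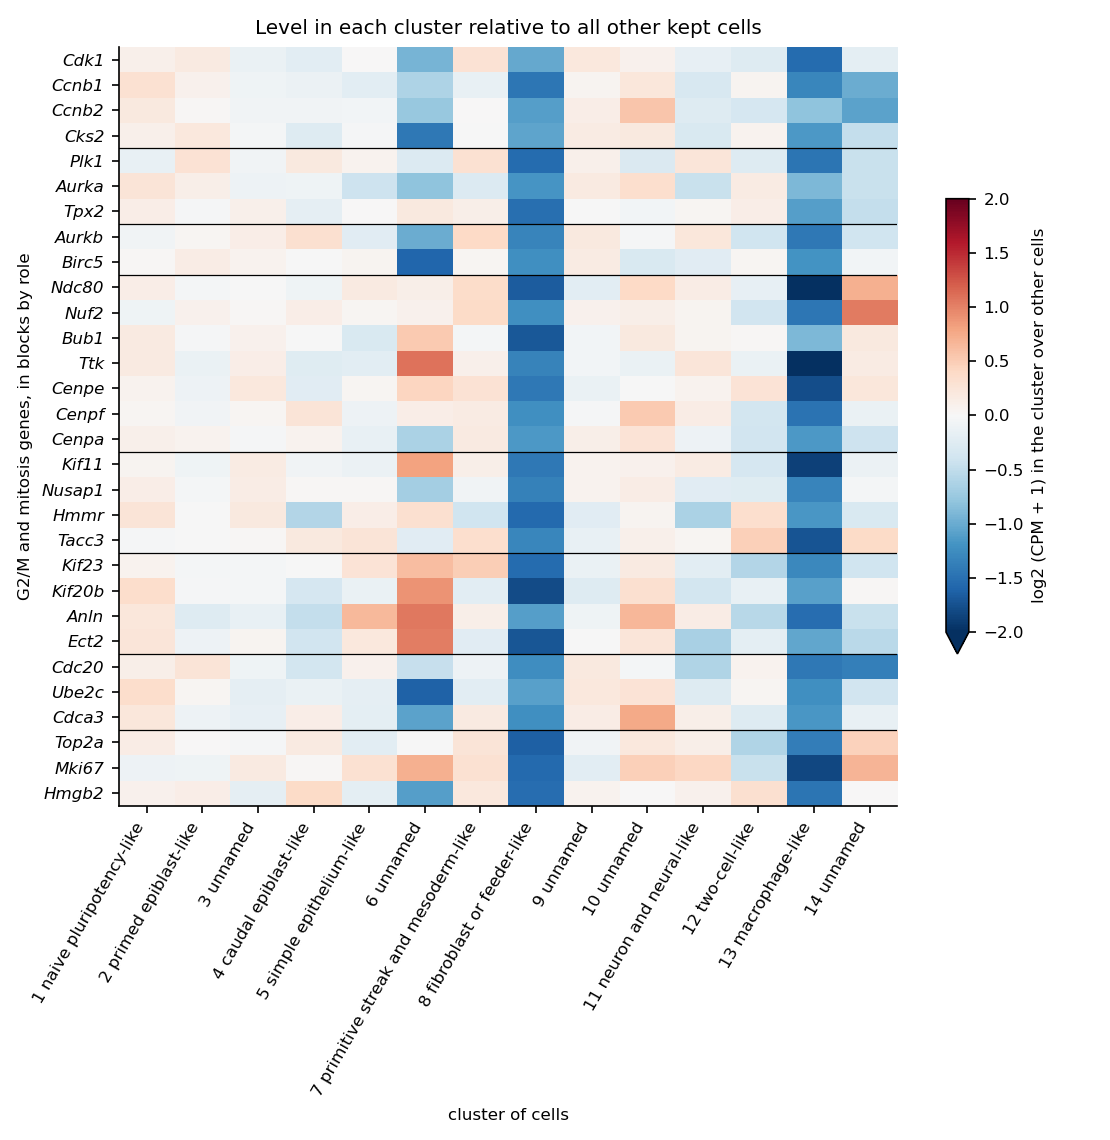
The log2 ratio of each gene's level (CPM plus 1) in a cluster over all other kept cells is shown as color, for 30 genes in rows grouped by role and 14 clusters in columns. The columns of the fibroblast or feeder-like and macrophage-like clusters are blue in every row, cluster 6 is mixed, and the embryonic clusters are pale.

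The fibroblast or feeder-like cells held few of these transcripts. The 30 genes summed to 2497 CPM (2452 to 2543) in them, against 6445 CPM in the other kept cells, and 30 of 30 were at least 2-fold lower, where 13.6% of 7857 tested genes were. Their median log2 ratio was -1.34, against -0.15 over all tested genes, and the 30 ratios lay between -1.80 (Kif20b) and -1.03 (Cdk1). Hmgb2 stood at 677 CPM (654 to 701), against 1939 CPM in the other cells. Top2a stood at 159 CPM, against 499 CPM in the other cells. Bub1 stood at 21.5 CPM, against 71.9 CPM in the other cells, and Ect2 at 32.5 CPM, against 109 CPM. Of 30 S phase genes 26 were also at least 2-fold lower in these cells, and of 30 other G2/M genes 24 were. Without called doublets, which made up 23.3% of the cluster, the ratios of the 30 genes lay between -2.93 and -1.25. Of 17 G1 cyclins and CDK inhibitors, 7 were at least 2-fold higher in these cells and 1 lower, where 17.4% of all tested genes were higher.

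The transcripts in the fibroblast or feeder-like cluster were unevenly spread over its cells. To compare cells at 1 depth, each was thinned to 2000 UMIs at random, which left out 294 of the kept cells, 160 of them in cluster 6. The fibroblast or feeder-like cells then held a median of 1 UMI of the 30 genes, and 29.2% of them (25.4 to 33.3%) held none, whereas over all thinned cells the median was 12 UMIs. Of the 325 fibroblast or feeder-like cells with 0 to 2 such UMIs, 2.77% were called doublets, of the 101 with 3 to 7, 44.6%, and of the 105 with 8 or more, 66.7%. Pou5f1, the pluripotency factor that fibroblasts lack, stood at 41.5 CPM in the first class, 312 in the second and 371 in the third. The fibroblast markers went the other way, at a sum of 11377 CPM in the first class, 5832 CPM in the second and 4914 CPM in the third. Cdkn1a, an inhibitor of CDKs, stood at 1349, 743 and 495 CPM in the 3 classes. With called doublets left out, 37.8% of 407 fibroblast or feeder-like cells held none of the 30 genes' UMIs.

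In the macrophage-like cluster the 30 genes summed to 2478 CPM (2332 to 2631), against 6307 CPM in the other cells, and 27 of 30 were at least 2-fold lower, where 22.4% of tested genes were and 14.9% were higher. The other 3, Ccnb2, Aurka and Bub1, had log2 ratios of -0.80, -0.90 and -0.90. Doublet calls took 22.2% of these 81 cells, and of the 13 cells with 8 or more UMIs of the 30 genes, 84.6%. Hmgb2 stood at 691 CPM in macrophage-like cells, against 1895 CPM in the other cells.

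**Figure D2:**
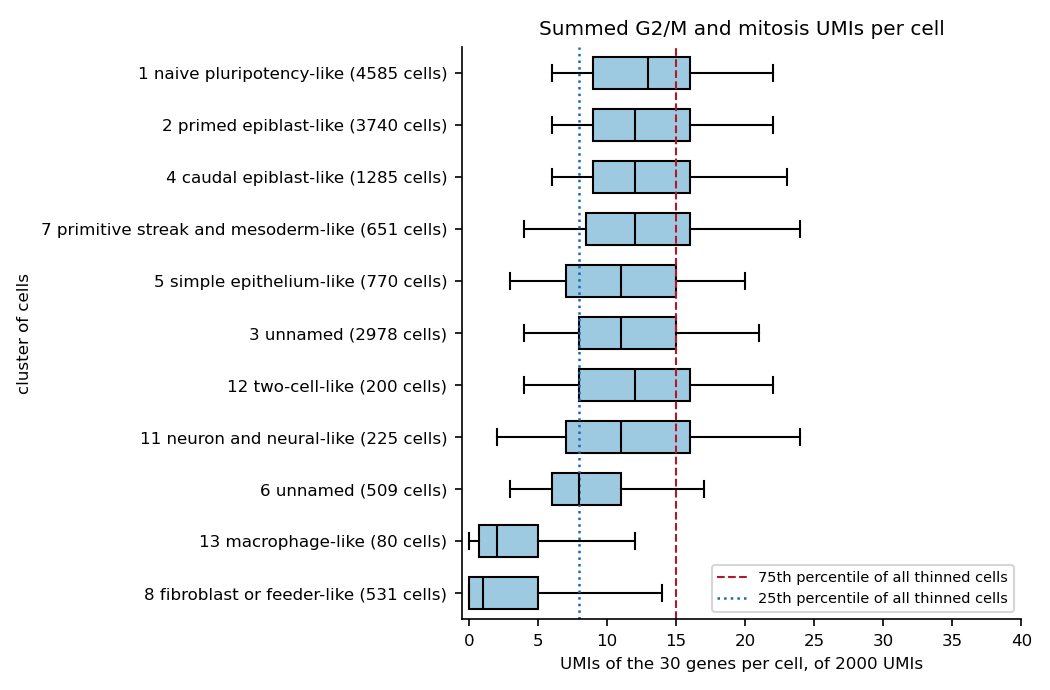
Summed UMIs of the 30 genes per cell, of 2000 UMIs kept at random, are shown for 11 clusters. Boxes span the quartiles with the median as a line, whiskers run from the 5th to the 95th percentile of cells, and the dashed and dotted lines are the 75th percentile (15 UMIs) and the 25th percentile (8 UMIs) of all thinned cells. The boxes of the embryonic clusters overlap one another, and those of the fibroblast or feeder-like and macrophage-like clusters lie below 8 UMIs.

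By the same sum, cells at or above 15 UMIs made up 36.0% (34.6 to 37.4%) of the naive pluripotency-like cells, 34.0% (32.5 to 35.6%) of the primed epiblast-like, 33.9% of the primitive streak and mesoderm-like and 32.9% of the caudal epiblast-like cells. They were 36.7% of cluster 10, 33.5% of cluster 9, 32.0% of the two-cell-like and 30.7% of the neuron and neural-like cells. Lower shares were seen in cluster 3, at 25.9% (24.3 to 27.5%), and in the simple epithelium-like cells, at 25.6% (22.5 to 28.8%). Cluster 6 had 10.4%, the macrophage-like cells 3.75% and the fibroblast or feeder-like cells 4.71% (3.07 to 6.87%), or 2.21% without called doublets.

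Shares of cells with a UMI showed the same contrast. After thinning, 93.3% of kept cells (92.9 to 93.7%) had a UMI of Hmgb2, against 29.7% (25.3 to 34.4%) of the 407 fibroblast or feeder-like cells that were not called doublets. Without thinning the shares were 97.4% of kept cells and 55.4% of those fibroblast or feeder-like cells. Top2a was seen in 54.1% of thinned kept cells, against 9.83% of the fibroblast or feeder-like ones (82.2% and 27.0% without thinning). Ndc80 was seen in 4.77% of thinned kept cells, against 0.737% of the fibroblast or feeder-like ones (16.8% and 3.92% without thinning). These shares of kept cells include called doublets and the fibroblast or feeder-like cells themselves. The median depth was 6473 UMIs in kept cells and 6256 UMIs in kept cells that were not called doublets. It was 6759.5 UMIs in the fibroblast or feeder-like cells that were not called doublets. A cell-free droplet held 1.31 UMIs of the 30 genes. The part of free RNA in these shares was not tested.

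Cluster 6, the shallow cluster, showed an uneven pattern over the 30 genes. They summed to 4477 CPM (4383 to 4572), against 6323 CPM in the other cells, but 3 of 30 were at least 2-fold higher and 5 at least 2-fold lower, where 32.4% of 7931 tested genes were higher and 14.8% lower. Ttk stood at 105 CPM in cluster 6, against 49.3 CPM in the other cells, Anln at 113 CPM against 53.9 CPM, and Ect2 at 212 CPM against 104 CPM. Ube2c stood at 129 CPM, against 397 CPM in the other cells, Birc5 at 111 CPM against 334 CPM, and Cks2 at 186 CPM against 502 CPM. Cdca3 and Hmgb2 were the other 2 that were lower.

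The genes that were higher were long and those that were lower were short. Gene span was taken from the reference annotation, introns included. Of the 15 genes spanning at least 30 kb, 13 had a log2 ratio above 0, with a median of 0.43, and of the 15 shorter genes 14 had one below 0, with a median of -0.81. Spearman's rho of the log2 ratio with span was 0.81 over the 30 genes and 0.77 over 7898 genes, which share 1 library and are not independent. Over all tested genes, 3762 of 4189 of at least 30 kb lay above 0, with a median of 1.08, and 2546 of 3709 shorter ones lay below 0, with a median of -0.53. The 30 genes thus had lower medians than genes at large in either class, but span was not matched within the classes. The longest of the 30 was Cenpe at 61.1 kb, whereas the class of long genes at large had no upper limit. The part of span in these lower medians was not tested. Nusap1, at 32.9 kb, was among the exceptions, with a log2 ratio of -0.68. Depth and mitochondrial share moved with this cluster, at a median of 2652 UMIs against 6473 UMIs in all kept cells and 8.15% against 3.14% mitochondrial UMIs, and their part in the pattern was not tested.

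**Figure D3:**
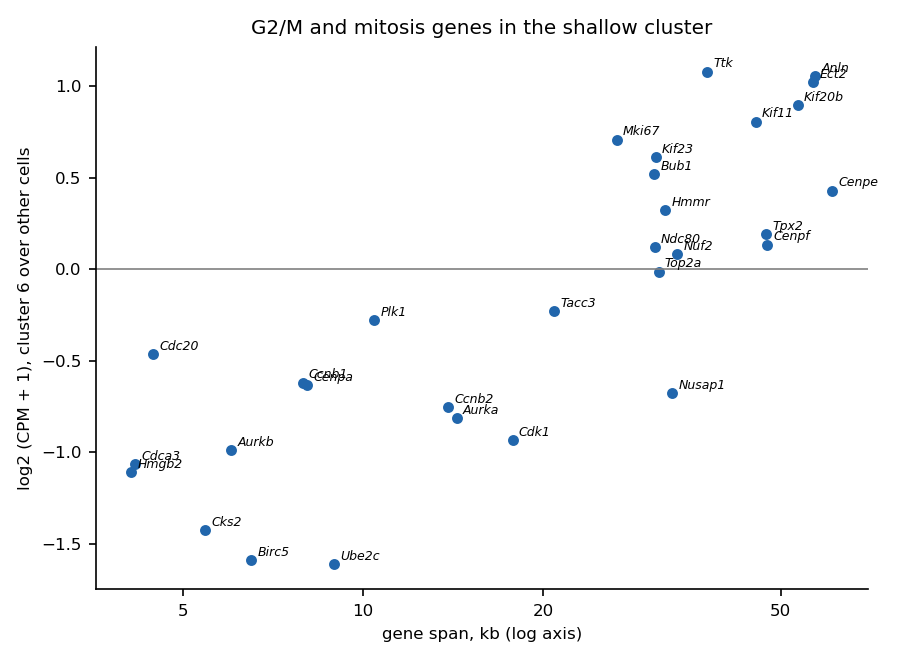
Each of the 30 genes is placed by its span in kb (log axis) and by the log2 ratio of its level (CPM plus 1) in cluster 6 over the other kept cells. Genes of at least 30 kb lie mostly above 0 and shorter ones mostly below it.

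Called cells that were not kept were compared with kept cells in the same way. In the 4308 cells over the mitochondrial maximum, 5 of the 30 genes were at least 2-fold lower than in kept cells and none was higher, where 12% of tested genes were lower and 13.9% higher. In the 444 cells under the gene minimum alone, 6 were lower and none higher, where 5.17% were lower and 19.3% higher. Ube2c was the lowest of the 30 in both, with log2 ratios of -1.44 and -1.29.

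From cell to cell, the 30 genes moved together. In cells thinned to 2000 UMIs, their sum ran from 0 to 49 UMIs with quartiles at 8 and 15, and its variance was 2.51 times its mean. Each gene was then compared between cells high in the other 29 genes (at or above the 75th percentile of their sum) and cells low in them (at or below the 25th percentile), so that a gene did not help to choose its own cells. All 30 were higher in the high cells, with a median log2 ratio of 0.85, and 12 of 30 were at least 2-fold higher. Over 7110 genes outside the list, in cells chosen by the sum of all 30, the median was -0.04. Of those genes 44.7% lay above 0 and 0.211% were at least 2-fold higher. A class made from such a sum is a range and no cell type: 5086 cells stood at or above the limit of 15 UMIs, 960 of them exactly on it, and 1079 cells lay 1 UMI under it.

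Over all kept cells, Ube2c had the highest ratio of the 30. It stood at 590.5 CPM in high cells and 178 CPM in low cells (log2 ratio 1.73, interval 1.65 to 1.81). Nusap1, which bundles spindle microtubules, stood at 204 CPM in high cells and 62.7 CPM in low cells (1.69, interval 1.57 to 1.84). Aurka stood at 137 CPM in high cells and 48.7 CPM in low cells (1.47). Plk1, the kinase that drives entry into mitosis, had a log2 ratio of 1.36, Ccnb1 one of 1.31, Cenpf 1.28, Hmmr 1.23, Cdk1 1.16, Cenpe 1.12, Aurkb 1.12 and Tpx2 1.08. Cdc20 was the last at 2-fold or more, at 279 CPM in high cells and 139 CPM in low cells. The next were Kif23 at 0.98, Cenpa at 0.88, Top2a at 0.86, Cks2 at 0.83, Kif20b at 0.80, Mki67 at 0.77, Cdca3 at 0.76, Ndc80 at 0.73 and Kif11 at 0.71. By role, the spindle pole genes Aurka, Plk1 and Tpx2 all stood above the median of the 30. Of each other role, some genes stood above it and some below. Of the kinetochore and checkpoint genes, Cenpf, Cenpe and Cenpa stood above it, and Ndc80, Nuf2, Ttk and Bub1 below. Whether role and ratio go together was not tested.

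The weakest followers were Bub1 and Hmgb2. Bub1 stood at 75.02 CPM in high cells and 58.8 CPM in low cells (log2 ratio 0.35, interval 0.19 to 0.52), and Hmgb2, the most abundant of the 30, at 2088 CPM in high cells and 1640 CPM in low cells (0.35, interval 0.32 to 0.38). Inside the naive pluripotency-like cluster Bub1 had a ratio of 0.10 (-0.19 to 0.40), the lowest of the 30 there, and inside the primed epiblast-like cluster of 0.24 (-0.11 to 0.60), where Nuf2, Hmgb2, Ndc80, Tacc3 and Birc5 were lower. Anln had a ratio of 0.43 over all kept cells, 0.55 in the naive pluripotency-like and 0.70 in the primed epiblast-like cluster. Over all kept cells, Ttk had 0.57, Ccnb2 0.59, Tacc3 0.60, Birc5 0.60, Nuf2 0.63 and Ect2 0.64. Ccnb2 and Ccnb1, both B-type cyclins, thus stood apart, at 0.59 (0.46 to 0.73) and 1.31 (1.21 to 1.43).

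Fibroblast or feeder-like cells made up 0.492% of the high cells and 10.2% of the low cells, and cluster 6 cells 1.04% of the high and 6.02% of the low cells. The median depth before thinning was 7412.5 UMIs in high cells and 5550 UMIs in low cells. Because of the uneven mix of clusters, the same comparison was made inside the naive pluripotency-like and the primed epiblast-like cluster, the largest ones. Depth before thinning was not compared between high and low cells inside them. In the naive pluripotency-like cluster all 30 ratios were above 0, 27 with an interval above 0, with a median of 0.76 and 7 of 30 at least 2-fold. In the primed epiblast-like cluster all 30 were above 0, 25 with an interval above 0, with a median of 0.70 and 4 of 30 at least 2-fold. Of the genes outside the list, 50.6% lay above 0 in the naive pluripotency-like and 46.5% in the primed epiblast-like cluster. At least 2-fold higher were 0.0918% and 0.195% of them. Their share with an interval above 0 was not computed. Ube2c had a ratio of 1.26 and 1.27 in these clusters, Nusap1 of 1.42 and 1.25, and Aurka of 1.01 and 1.29. Nusap1 was thus the highest of the 30 in the naive pluripotency-like cluster and Aurka in the primed epiblast-like one. Hmgb2 was low in both, at 0.15 and 0.08. Cenpa had 0.82 in the naive pluripotency-like cluster and 0.39 in the primed epiblast-like one, and Cdc20 had 0.82 and 0.37.

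**Figure D4:**
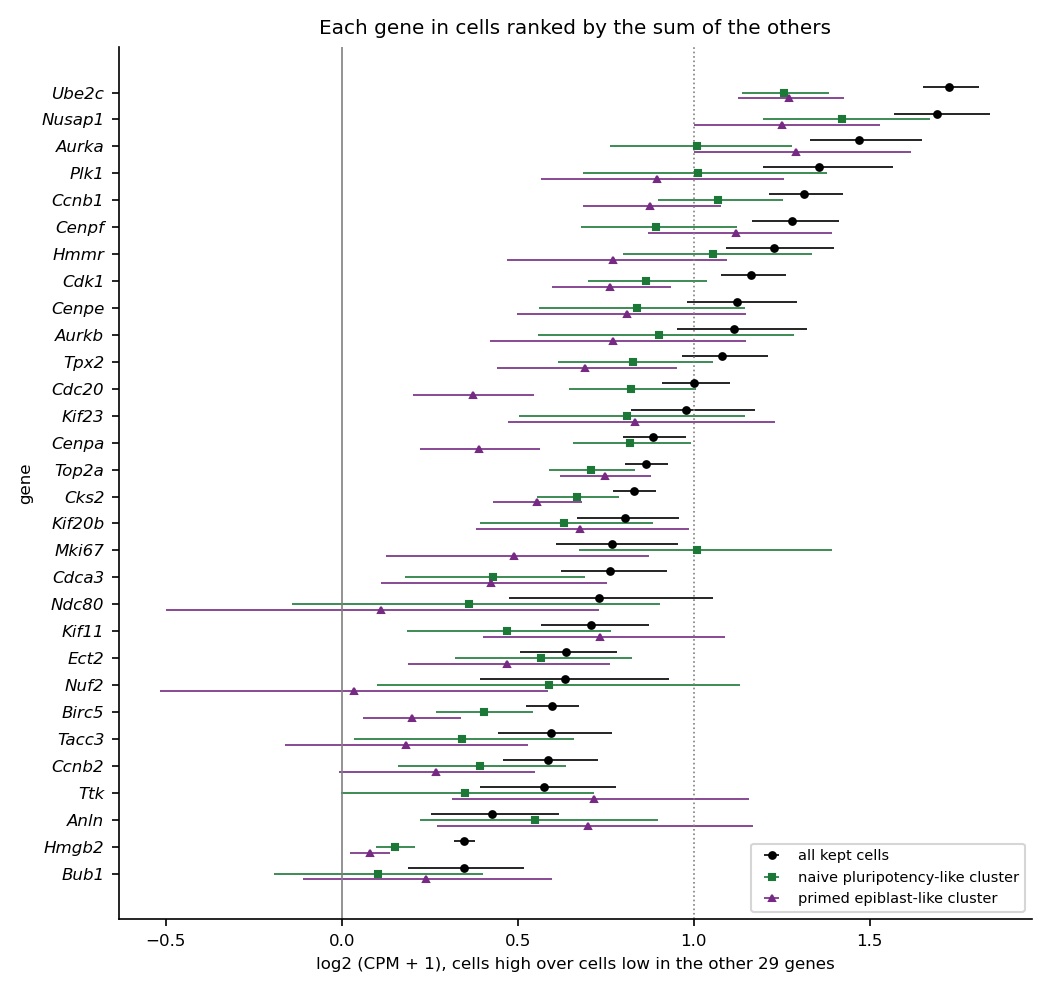
For each gene, the log2 ratio of its level (CPM plus 1) in cells high over cells low in the other 29 genes is plotted. Points are given for all kept cells, the naive pluripotency-like cluster and the primed epiblast-like cluster, with 95% intervals of counting error. The intervals were taken without the added 1. All points lie above 0, and over all kept cells Ube2c and Nusap1 are the highest and Hmgb2 and Bub1 the lowest.

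Outside the list, 15 of 7110 genes were at least 2-fold higher in the high cells. One of them, Rps23rg1, has a ribosomal protein name and was set aside by the naming rule. The others included further genes of late division: Fam83d, which brings a kinase to the spindle, at 32.2 CPM in high cells and 9.34 CPM in low cells (log2 ratio 1.69, interval 1.43 to 2.16), Prc1, the bundler of the central spindle, at 211 CPM in high and 79.3 CPM in low cells (1.40), and Kif20a, a motor of cytokinesis, at 69.3 CPM in high and 30.1 CPM in low cells (1.18). Pimreg, H2ax, Arhgap19, Arl6ip1, Aspm, Racgap1, Incenp, Lockd, Kpna2, Kif2c and Ckap2l had ratios between 1.01 and 1.199. Aspm works at spindle poles, Racgap1 is the partner of Kif23 in the central spindle, Incenp is the scaffold of the chromosomal passenger complex, and Kif2c takes microtubules apart at centromeres. Fzr1, the other activator of the anaphase-promoting complex, came next at 0.97. Inside the naive pluripotency-like cluster 6 genes and inside the primed epiblast-like cluster 13 genes were at least 2-fold higher, and 9 were with clusters 6, 8, 9 and 13 left out. The count was 3 with cells thinned to 1000 UMIs, 23 at the 90th percentile and 44 with no minimum level.

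Of 30 other G2/M genes, 6 were at least 2-fold higher in the high cells and none as much lower, with a median log2 ratio of 0.76, against -0.04 over all tested genes. They were Prc1, Kif20a, Racgap1, Incenp, Kif2c and Ckap2l. Of the 16 regulators of G2/M transcription, none was 2-fold higher or lower, and their median was 0.02. E2f4, a repressor subunit of the DREAM complex, stood at 143 CPM in high cells and 107 CPM in low cells (0.41), Lin52 at 80.1 and 104 CPM (-0.37), Nfyb, a subunit of NF-Y, at 155 and 126 CPM (0.29), and Lin54 at 24.5 and 29.7 CPM (-0.27). Of the 12 CDK1 brakes and subunits or partners of the anaphase-promoting complex, none was 2-fold higher or lower, and their median was 0.21. Fbxo5, which inhibits that complex, stood at 113 CPM in high cells and 80.3 CPM in low cells, Wee1, the kinase that restrains CDK1, at 45.1 and 35.5 CPM, and Chek1 at 51.3 and 42.6 CPM.

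Lower in the high cells by at least 2-fold were 3.15% of tested genes, and 3 of 17 G1 cyclins and CDK inhibitors, with none as much higher. Cdkn2a stood at 17.4 CPM in high cells and 60.1 CPM in low cells, Ccnd2 at 52.3 and 147 CPM, and Cdkn1a at 133 and 272 CPM, and Btg2 had a log2 ratio of -0.54. Inside the naive pluripotency-like cluster Cdkn2a and Cdkn1a had ratios of 0.10 and 0.08, and inside the primed epiblast-like cluster of 0.21 and -0.11. Ccnd2 stayed at -0.61 in both clusters (intervals -1.32 to -0.00085 and -1.15 to -0.12). Btg2 had -0.27 (-0.64 to 0.08) in the naive pluripotency-like and -0.52 (-0.83 to -0.24) in the primed epiblast-like cluster. None of the 17 was 2-fold lower in either cluster, where 0.0612% and 0.15% of tested genes were.

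Over all kept cells, the sum of 30 S phase genes hardly differed between high and low cells. It averaged 7.56 UMIs in high cells and 7.48 UMIs in low cells, and none of the 30 S phase genes was 2-fold higher or lower, with a median log2 ratio of 0.01. Pola1, a subunit of DNA polymerase alpha, stood at 229 CPM in high cells and 331 CPM in low cells (-0.53), Ccne2 at 19.5 and 26.2 CPM (-0.41), Ung at 65.5 and 81.3 CPM (-0.31), and Rpa2, of the single-strand binding complex, at 55.7 and 44.4 CPM (0.32). In the primed epiblast-like cluster the median of the S phase genes was -0.24, and their sum 4011 CPM in high and 4555 CPM in low cells. In the naive pluripotency-like cluster the median was -0.08, and the sum 3853 CPM in high and 4089 CPM in low cells. Fibroblast or feeder-like cells, 0.492% of the high and 10.2% of the low cells, averaged 2.57 S phase UMIs. Their part in the near equality over all kept cells was not tested. Cells with an S phase sum at or above its own 75th percentile of 10 UMIs were 26.3% of the cells high in the 30 genes and 32.2% of all other cells.

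The cells high in G2/M and mitosis UMIs, by the sum of all 30 genes, were then split into 3750 with a low and 1336 with a high S phase sum. For the level of each gene the classes were redrawn with that gene left out of the sum, so their cell numbers differed by gene. In the high cells so drawn, 26 of 30 genes were higher where the S phase sum was low, 17 with an interval above 0, with a median log2 ratio of 0.17. Over 6700 other genes the median was -0.01 and 47.6% lay above 0. Hmmr stood at 137 CPM in S phase-low cells and 102 CPM in S phase-high cells (0.42, interval 0.23 to 0.63), Nusap1 at 217 and 170.4 CPM (0.34), and Ube2c at 619 and 510.5 CPM (0.28). Hmgb2, Bub1, Ttk and Nuf2 had ratios between -0.07 and -0.02, with intervals that spanned 0. Anln had the highest ratio, at 68.5 and 47.3 CPM (0.53, interval 0.25 to 0.83), but it was -0.12 with another random draw in thinning and -0.10 with cells thinned to 1000 UMIs. In the naive pluripotency-like cluster 23 of 30 genes were higher, 6 with an interval above 0, where 45.3% of other genes were higher. In the primed epiblast-like cluster 25 of 30 were higher, 8 with an interval above 0, where 46.4% of other genes were. The interval of Anln spanned 0 in both, at -0.25 to 0.75 and -0.37 to 1.12.

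**Figure D5:**
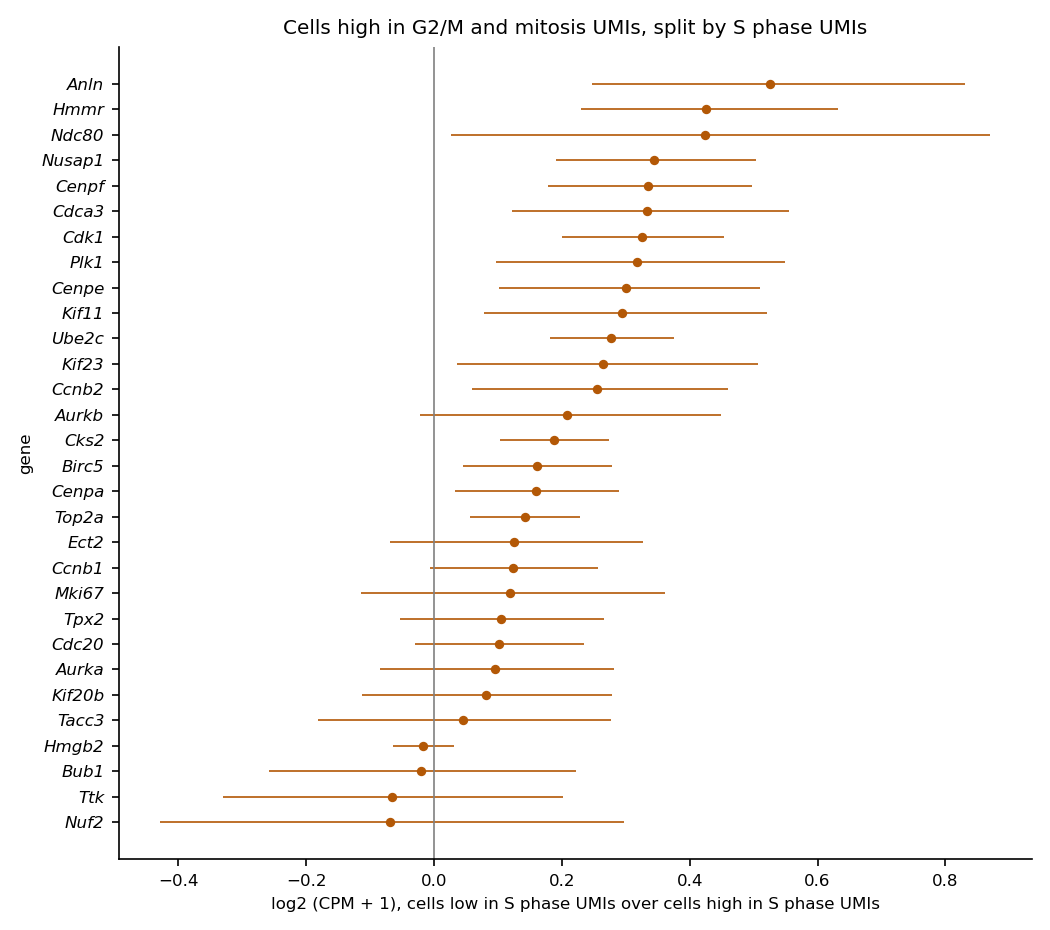
Among cells high in G2/M and mitosis UMIs, cells with a low S phase sum are compared with cells with a high one. The log2 ratio of each gene's level (CPM plus 1) is plotted with its 95% interval of counting error, taken without the added 1. Of the 30 points 26 lie above 0, with Anln at the top, although Anln had a ratio of -0.12 with another random draw in thinning.

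In the remaining cells, those not high in the 30 genes, Hmgb2 and Bub1 stood apart. By the sum of all 30 genes, cells with a high S phase sum numbered 3690 and those with a low one 7771. The classes were again redrawn for each gene. Hmgb2 stood at 2050 CPM in the S phase-high and 1717 CPM in the S phase-low cells (log2 ratio 0.26, interval 0.23 to 0.28), and Bub1 at 72.9 and 62.0 CPM (0.23, interval 0.08 to 0.39). They were the only 2 of the 30 with an interval above 0, whereas 10 of 30 had one below 0. The median was -0.08, against 0.02 over 6928 other genes. Of the 30 genes 10 had a ratio above 0, as did 55.3% of those other genes. Such intervals narrow as UMIs grow in number. The share of all genes with an interval above or below 0 was not computed, here or in the split above. Ube2c stood at 245 CPM in the S phase-high and 295 CPM in the S phase-low cells (-0.26, interval -0.34 to -0.19), and Nusap1 at 84.9 and 101 CPM (-0.25). In the naive pluripotency-like cluster the ratio was 0.11 (0.06 to 0.16) for Hmgb2 and 0.03 (-0.26 to 0.31) for Bub1, and in the primed epiblast-like cluster 0.17 (0.11 to 0.22) for Hmgb2 and 0.36 (0.03 to 0.69) for Bub1. With the lenient cell filter the ratio of Bub1 was -0.0023. Under the alternatives the ratio of Hmgb2 stayed between 0.11 and 0.27.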

How the data were processed

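Values were deposited as whole-number UMI counts for each feature and barcode. Cell Ranger 8.0.1 is named in the file headers, and Seurat, with no version, in the submitters' processing notes. A deposited table holds for 21593 called cells the tag call, its probability as a fraction, and the log10 of tag counts plus 1. The tag names match no sample label, so the matrix was treated as 1 sample. How reads shared by near-identical genes were counted is not given in the sources used here.

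Kept cells had 1000 genes or more and 10% mitochondrial UMIs or less. Leiden clusters (resolution 0.5, scanpy 1.11.5, leidenalg 0.10.2, 1999 variable genes, 30 components, 15 neighbours) left out the G2/M, other G2/M and S phase lists. Doublets (1730, called with Scrublet) stayed in. A cluster took a name with at least 3 markers at least 2-fold higher, more than of any other list, 1 or more among its 10 leading genes and at least 50 cells, a rule set after the clusters were seen. CPM came from summed UMIs with exact Poisson intervals, shares had exact binomial intervals, and ratios exact conditional binomial intervals. Folds used a pseudocount of 1 CPM, and a gene was tested with at least 20 CPM on the higher side. The intervals of ratios left the pseudocount out, so for genes of low level the printed ratio lies off the center of its interval. Intervals cover counting error only. Only the calls of fold changes, with and without thinning, were tested on simulated data.

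Named outside the list are the 15 genes with the highest fold in high cells, without provisional, mitochondrial or ribosomal names, and up to 4 genes per pathway list with the largest fold either way. Other non-members and the sequences shown were picked with their values known. The members and lists were chosen with earlier results of these data known, among them the low level of G2/M genes in fibroblast-like cells, which is no independent support.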

Additional observations from a re-analysis of the deposited data

Results flagged for a closer look

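Called cells outside the kept ones, which entered no cluster and no class of high or low cells, also held UMIs of the 30 genes. The 4308 called cells over the mitochondrial maximum held 25173 of their UMIs, or 4139.55 CPM (4089 to 4191). The 444 called cells under the gene minimum and not over the mitochondrial maximum held 1695, or 3920.1 CPM (3736 to 4111). Without mitochondrial genes in the total these levels were 5015 and 4117 CPM, against 6507 CPM in kept cells. Ube2c was the lowest in both, with log2 ratios of -1.44 and -1.29, and Anln (0.87) and Ect2 (0.51) were the highest. Both kinds of cell were shallow, with medians of 1216 and 893 UMIs, and the part of depth in these values was not tested.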

How the results depend on the processing

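No paired analysis was possible because each group has 1 sample and the matrix pools them, and no replicate could be left out for the same reason. The summed level of the 30 genes was 6214 CPM with a lenient cell filter, 6469.7 CPM with a strict one and 8175 CPM with mitochondrial and ribosomal protein genes out of the total, against 6293 CPM as reported. It was 6287 CPM without called doublets and 6301 CPM with free RNA subtracted. The 30 genes stayed at least 2-fold lower in the fibroblast or feeder-like cluster under 5 alternatives, and 29 did under the strict filter. The share of those cells that were high was 4.71%, and 1.72% with called doublets removed before the percentiles were taken and 1.32% at the 90th percentile. The count of genes outside the list that were at least 2-fold higher in high cells was 15, and 23 at the 90th percentile, 3 with cells thinned to 1000 UMIs and 44 with no minimum level. Alternatives added after the data were seen gave 6 in the naive pluripotency-like cluster alone and 13 in the primed epiblast-like cluster alone. They gave 9 without clusters 6, 8, 9 and 13, 14 with another draw and 21 with Hmgb2 left out of the sum. With Hmgb2 left out, 5.27% of the fibroblast or feeder-like cells were high, and 24 of the 30 genes were higher in S phase-low cells. The count of genes higher in S phase-low cells lay between 21 and 28 under the alternatives, against 26. Single genes in that split turned more often. Of 300 ratios of S phase-low over S phase-high cells recomputed for the 30 genes under the alternatives, 39 changed sign, and of 300 in the remaining cells 49 did. Among ratios of this split whose reported interval did not span 0, Ccnb2 turned to -0.0053 with the lenient filter and -0.12 without called doublets, Birc5 to -0.0055 and Cdca3 to -0.21 at the 90th percentile, and Anln to -0.10 with cells thinned to 1000 UMIs and -0.12 with another draw. Ndc80 turned to -0.0052 and Cenpe to -0.013 in the naive pluripotency-like cluster, and Ndc80 to -0.020 with another draw. In the remaining cells Bub1 turned to -0.0023 with the lenient filter and Kif23 to 0.0033 with cells thinned to 1000 UMIs. Between high and low cells, Cdkn2a turned to 0.10 and 0.21 in the naive pluripotency-like and primed epiblast-like clusters and Cdkn1a to 0.079 in the naive one. The cause of these turns was not tested. No ratio of the 30 genes in the fibroblast or feeder-like cluster changed sign among the 180 recomputed. Of all comparisons of single genes with their alternatives, 208 moved by more than the reported interval or limit, 14 reversed as listed and 1308 did neither. At a median of 6473 UMIs per cell, genes as low as Ndc80 gave no UMI in most cells, which limits what single cells can show.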
